A study of Mus musculus with 9 samples.

Results

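The 34 genes described here encode proteins of the cardiac sarcomere outside the myosin motor: the thin filament, titin with its thick filament and M-band partners, the Z-disc, the filaments and repeat proteins that anchor the Z-disc, and the MuRF ubiquitin ligases. They were taken as a list of symbols, with myosins left out. All 34 were found among the 34198 gene symbols of the deposited table, and all 34 were among the 12925 genes that reached 1 CPM (a gene's reads scaled to the library's total) in at least 3 libraries and were tested. RNA sequencing had been done on microdissected atrioventricular (AV) nodes, the tissue that delays the impulse between the atria and the ventricles, from C57BL/6J mice in 3 groups of 3 libraries. Libraries 1 to 3 came from mice whose genotype is given only as control. Libraries 4 to 6 came from Cx3cr1 Cx43-/- mice, in which connexin 43, the gap junction protein encoded by Gja1, is deleted. The label pairs this deletion with Cx3cr1, a gene of macrophages and monocytes, and names no Cre line. Libraries 7 to 9 came from macrophage-depleted Cd11bDTR mice, in which the promoter of CD11b, active in macrophages, monocytes and neutrophils, drives the diphtheria toxin receptor. The sources used here give no age, toxin dose or interval after toxin, and do not say whether control mice carried a Cre or received toxin, or whether nodes were pooled. The series describes the 3 libraries of a group as biological replicates.

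The sarcomere is the contractile unit of striated muscle. Thin filaments of actin, tropomyosin and troponin are anchored at the Z-disc by alpha-actinin and its partners, and titin spans from the Z-disc to the M-band, where myomesins tie the thick filaments together. Working myocytes of the atria and ventricles are packed with sarcomeres, whereas myocytes of the AV node hold fewer and less ordered ones.

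The libraries differed in how much of the total behind CPM the listed genes held, and this bears on every value below. The listed genes made up 42.8 to 48.7% of that total in control libraries, 46.8 to 47.9% in Cx43-/- libraries, and 44.0, 37.7 and 28.3% in depleted libraries 7, 8 and 9. The rest was not analysed here. By the spacing of low values, 1 CPM corresponded to 52.1 to 64.9 reads, so that Tnni1, the member with the lowest level among those called, rested on 224 to 893 reads per library. Over all 12925 genes the median log2 difference between depleted and control nodes was -0.49 on the deposited scale, -0.18 after rescaling the listed genes of each library to a common total, and -0.03 after median-of-ratios scaling. Differences below are on the deposited scale, log2(CPM + 0.5), unless another is named, and a gene was called at a limma adjusted p under 0.05. The macrophage markers, 11 in the table, summed to 251 to 396 CPM in control libraries, 389 to 520 in Cx43-/- libraries and 63.3 to 72.1 in depleted libraries, and none was at 0 in a whole group. Every depleted library was below every control library for each marker except Fcgr1 and Lyve1. Fcgr1 was at 3.06 ± 0.474 CPM in control and 5.10 ± 2.57 in depleted nodes (SD, n = 3). Lyve1 was at 16.9 ± 6.53 and 12.4 ± 5.66 CPM. Itgam, the gene of CD11b, was at 5.31 ± 3.65 CPM in control and 6.47 ± 3.77 in depleted nodes, with overlapping libraries. Gja1 stood at 207 ± 41.8 CPM in control, 219 ± 36.4 in Cx43-/- and 71.7 ± 16.8 in depleted nodes (SD, n = 3). Since other cells of the node make Gja1, its level in Cx43-/- nodes does not check a deletion in macrophages. The 10 markers of the AV node and conduction system, among them Hcn4 and Tbx3, were detected in every group. Their sum was 593 to 764 CPM in control, 552 to 725 in Cx43-/- and 117 to 167 in depleted libraries, and 9 of the 10 were called lower in depleted than in control nodes. The 7 cardiomyocyte markers summed to 16998 to 19743 CPM in control, 18569.5 to 19349.9 in Cx43-/- and 7339.7 to 11785 in depleted libraries, with 3 of the 7 called lower. In bulk tissue, fewer cells of a type and less RNA per cell cannot be told apart, and the part of these markers in the results below was not tested.

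Depleted libraries 7 and 9 stood apart for the sarcomere genes themselves. Within the depleted group, library 7 held the highest value of 30 of the 34 genes and library 9 the lowest of 31. After rescaling to a common total these counts were 24 and 18. The summed level of the 34 genes was 30664 to 32459 CPM in control libraries and 30655 to 32669 in Cx43-/- libraries, against 34881, 24761 and 19935 CPM in libraries 7, 8 and 9. As a share of the listed genes, the sum was 6.996% ± 0.65 (SD, n = 3) in control, 6.69% ± 0.286 in Cx43-/- and 7.18% ± 0.694 in depleted nodes, so the total share of the genes overlapped between the groups. The ratio of the highest to the lowest library, gene by gene, had a median of 1.22 in control, 1.14 in Cx43-/- and 1.98 in depleted nodes. For this reason results for the depleted group are given with and without library 7 where that library decides them. On the deposited scale, leaving out library 7 added lower calls for Tnnt2, Tnnt1, Tpm1, Actc1, Acta1, Actn2, Myom1 and Smpx. None of these was called lower without library 7 on a common total.

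Promoters are shown for 6 of the 7 genes whose difference between depleted and control nodes was called on all 4 scales used (deposited, common total, median-of-ratios and quantile). The 4 lower genes were Mybpc3, Ldb3, Nebl and Tnni1, and the 3 higher genes were Flnc, Pdlim5 and Xirp1. All 4 scales include library 7, and without it on the deposited scale only Xirp1 was called higher. The sequences are the 250 bases before an annotated start, from RefSeq on GRCm38.p6, matched by symbol and written 5′ to 3′ on the strand of the gene. Capitals mark matches to the motifs searched. Tnni1, Flnc, Pdlim5 and Ldb3 have 2 annotated starts each and Nebl has 4, and 1 is shown for each of these. Xirp1 had no match in the table.
Mybpc3, chr2:91117894-91118143, plus strand: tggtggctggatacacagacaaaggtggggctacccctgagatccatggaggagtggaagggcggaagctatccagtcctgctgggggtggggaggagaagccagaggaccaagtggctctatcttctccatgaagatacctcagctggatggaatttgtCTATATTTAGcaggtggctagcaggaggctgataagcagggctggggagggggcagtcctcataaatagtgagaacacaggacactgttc
Ldb3, chr14:34588682-34588931, minus strand: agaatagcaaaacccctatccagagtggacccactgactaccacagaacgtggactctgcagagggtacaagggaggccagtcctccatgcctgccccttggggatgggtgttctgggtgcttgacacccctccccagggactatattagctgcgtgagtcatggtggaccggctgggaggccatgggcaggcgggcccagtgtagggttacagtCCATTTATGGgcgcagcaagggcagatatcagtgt
Nebl, chr2:17670166-17670415, minus strand: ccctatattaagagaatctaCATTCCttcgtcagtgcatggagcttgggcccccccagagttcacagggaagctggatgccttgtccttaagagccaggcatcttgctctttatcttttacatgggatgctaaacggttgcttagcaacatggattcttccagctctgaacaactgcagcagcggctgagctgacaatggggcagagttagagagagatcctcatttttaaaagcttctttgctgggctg
Tnni1, chr1:135799171-135799420, plus strand: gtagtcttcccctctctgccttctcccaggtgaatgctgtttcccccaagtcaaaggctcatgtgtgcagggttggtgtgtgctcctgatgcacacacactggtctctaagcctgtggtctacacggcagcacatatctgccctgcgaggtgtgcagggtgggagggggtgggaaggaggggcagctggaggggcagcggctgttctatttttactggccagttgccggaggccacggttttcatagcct
Flnc, chr6:29433006-29433255, plus strand: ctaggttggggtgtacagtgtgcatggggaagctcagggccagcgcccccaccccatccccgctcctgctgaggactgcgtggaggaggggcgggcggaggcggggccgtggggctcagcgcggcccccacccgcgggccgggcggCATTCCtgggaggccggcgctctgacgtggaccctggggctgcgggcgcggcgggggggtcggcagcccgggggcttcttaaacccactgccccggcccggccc
Pdlim5, chr3:142395697-142395946, minus strand: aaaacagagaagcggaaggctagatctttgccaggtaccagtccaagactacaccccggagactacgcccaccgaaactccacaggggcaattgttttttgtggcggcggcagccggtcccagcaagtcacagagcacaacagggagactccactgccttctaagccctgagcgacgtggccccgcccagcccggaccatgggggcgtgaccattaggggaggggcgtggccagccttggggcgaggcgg

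Searches for 4 motifs known from muscle promoters covered both strands of windows from 250 bases before to 50 after each start: the CArG box, which binds serum response factor, the MEF2 site, the M-CAT element CATTCC, which binds TEAD factors, and the TATA element TATAAA. The table held 28 of the 34 members. In the sequences shown, Mybpc3 carried a MEF2 site 90 bases before its start, Ldb3 a CArG box 35 bases before, Nebl a CATTCC element 230 bases before and Flnc one 104 bases before. The Tnni1 and Pdlim5 windows shown held none of the 4, while another annotated start of Pdlim5 had a TATAAA element and another of Nebl a CArG box. A CArG box was found for 5 of the 28 members (17.9%: Actc1, Acta1, Myom1, Ldb3 and Nebl) and for 1.81% of the 27025 genes of the table, or 148 of the 9168 of them that entered the tests. A MEF2 site was also found for 5 (17.9%: Ttn, Mybpc3, Myoz2, Synpo2l and Xirp2), against 3.70% of all genes and 229 of the tested ones. CATTCC was found for 10 members (35.7%), against 16.6% of all genes and 1376 of the tested ones, and TATAAA for 6 (21.4%), against 15.7% of all genes and 819, or 8.93%, of the tested ones. The CATTCC and TATAAA letters do not overlap each other's, while a MEF2 site or a CArG box can contain TATAAA. These are matches of letters, and no binding was measured.

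In control nodes the cardiac troponins and cardiac actin led the list. Per kilobase of merged exon, the level was 4064 ± 25.6 CPM (SD, n = 3) for Tnnt2, cardiac troponin T, 3353 ± 289 for Tnni3, cardiac troponin I, and 3196 ± 249 for Actc1, cardiac actin. Tnnc1, the calcium-binding troponin C of heart and slow muscle, followed at 2282 ± 650.0 CPM per kilobase. The first 3 did not overlap with Tnnc1, but Tnni3 and Actc1 differed by less than their spread. At the low end stood Mypn, a palladin-family Z-disc protein, at 9.11 ± 1.47 CPM per kilobase, Tnnt1, slow skeletal troponin T, at 9.97 ± 1.16, and Tnni1, slow skeletal troponin I, at 10.9 ± 2.67. These neighbours also differed by less than their spread. Titin, whose merged exons span 113.588 kb, came to 13.97 ± 0.827 CPM per kilobase. The list thus covered a wide range of transcript abundance within one structure, with Tnnt2, Tnni3, Actc1 and Tnnc1 at the top. Exons of 5 members (Ttn, Des, Trim54, Cmya5 and Xirp2) overlap exons of antisense genes in the GENCODE M21 annotation. Of those 6 antisense genes, 4 were in the table, and none of the 4 passed 2.20 CPM in any library.

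**Figure D1:**
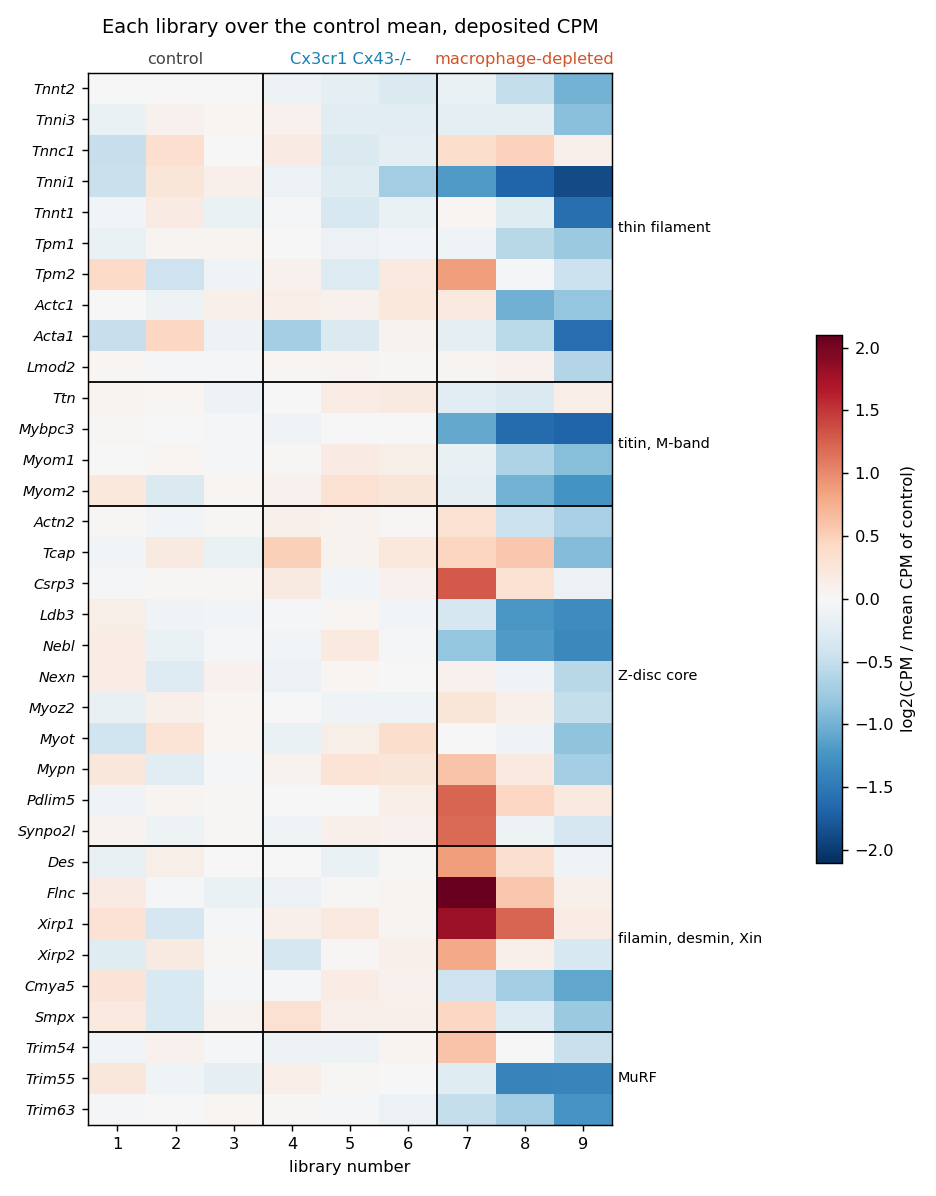
Heat map of the 34 genes (by role) in the 9 libraries, coloured by the log2 ratio of each library's CPM to the control mean, on the deposited scale. Control and Cx43-/- columns are mostly pale, Mybpc3, Nebl, Ldb3 and Tnni1 are low in all 3 depleted columns, and library 7 is the highest depleted library for 30 of 34 genes.

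The first comparison asked how the sarcomere genes differed between macrophage-depleted and control AV nodes. They did not move as one block. Of the 34, 8 were lower: Mybpc3, Tnni1, Nebl, Trim55, Ldb3, Trim63, Myom2 and Cmya5. A further 3 were higher: Xirp1, Flnc and Pdlim5. The other 23 were not called, and their log2 differences ran from -0.73 for Acta1 to 0.50 for Csrp3. Among all 12925 genes 33.0% were called lower and 3.23% higher (36.2% either way), so a lower call was common in the table as a whole. The median log2 difference was -0.23 over the 34 genes and -0.49 over all genes, and 21 of the 34 stood above the median of all genes. Library values of the groups did not overlap for 10 members on the lower side and 1, Pdlim5, on the higher side, where 38.0% and 3.61% of all genes showed this.

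**Figure D2:**
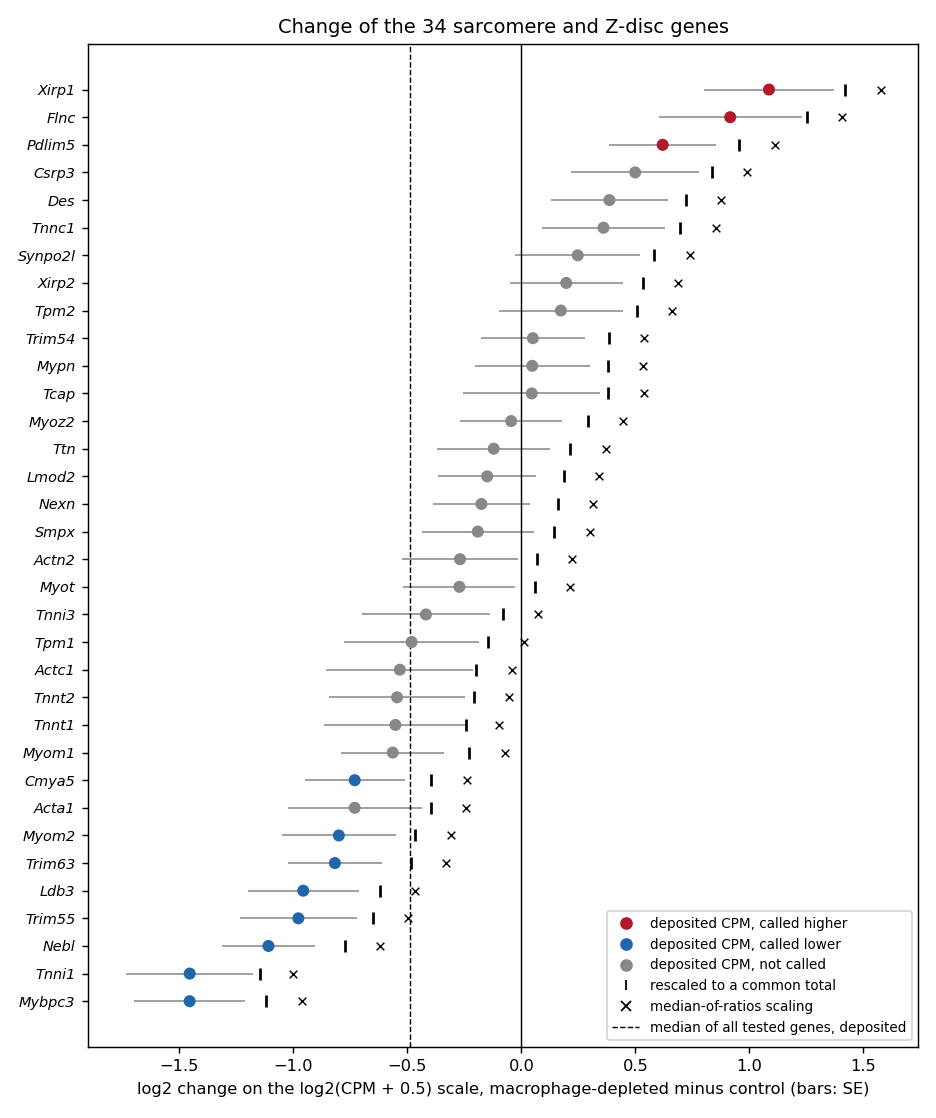
Log2 differences, depleted minus control, for the 34 genes sorted by size, with bars of 1 SE and points coloured by call. Further marks show the estimates on a common total and with median-of-ratios scaling. A dashed line marks the median of all tested genes on the deposited scale. On the deposited scale the estimates spread from -1.45 for Mybpc3 to 1.09 for Xirp1.

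Thin filament genes showed 1 call among 10, beside 36.2% of all genes, and it was the slow skeletal troponin I. Tnni1, the isoform of fetal heart and slow skeletal muscle, was at 10.1, 16.6 and 14.9 CPM in the control libraries, 12.7, 11.6 and 8.33 in the Cx43-/- libraries and 6.09, 4.30 and 3.77 in the depleted libraries. Every depleted library was below every other one. The log2 difference from control was -1.45 ± 0.28 (SE), 2.74-fold lower, with an adjusted p of 0.000472, and it was called in all 21 alternative fits. Its adult cardiac counterpart Tnni3 was at 2760.4, 3261 and 3152 CPM in control, 3267, 2578 and 2583 in Cx43-/- and 2683, 2657 and 1667 in depleted nodes. Its depleted libraries lay below the control ones without overlap, but the log2 difference of -0.42 ± 0.28 was not called (adjusted p = 0.242). Within each library, which needs no scaling between libraries, Tnni1 was 0.364, 0.509 and 0.473% of Tnni3 in control nodes, 0.390, 0.449 and 0.323% in Cx43-/- nodes and 0.227, 0.162 and 0.226% in depleted nodes. The log2 ratio was lower by an estimate of -1.04 in depleted than in control nodes with no overlap of libraries. The two-sided exact permutation test gave p = 0.1, the smallest that 3 against 3 libraries can reach, and 0.42 after adjustment over the 21 ratio tests.

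No other thin filament gene was called. Tnnt2 was at 5168, 5123 and 5106 CPM in control, 4785, 4451 and 4146 in Cx43-/- and 4643, 3630.3 and 2582 in depleted libraries, all 3 depleted values being below the control ones. The difference of -0.55 ± 0.30 was not called (adjusted p = 0.153), whereas without library 7 it was -0.75 (adjusted p = 0.0166). Tnnt1, which partners Tnni1 in slow muscle, was at 10.3, 12.2 and 9.77, 10.4, 8.53 and 9.78 and 11.04, 9.0 and 3.57 CPM in the same order of groups. Its difference from control was -0.55 ± 0.31 (adjusted p = 0.164), and without library 7 it was -0.85 (adjusted p = 0.0341). Unlike Tnni1 to Tnni3, its ratio to Tnnt2 had nearly the same mean in depleted and control nodes (log2 difference -0.01, exact permutation p = 1.0), a contrast between the 2 pairs that was not itself tested. Tnnc1 was at 1646 ± 469 CPM in control, 1541 ± 276 in Cx43-/- and 2065 ± 266 in depleted nodes (SD, n = 3), overlapping between groups. Lmod2, a leiomodin that promotes thin filament growth, was at 251 ± 7.55, 258 ± 2.20 and 232 ± 58.6 CPM.

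The actins and tropomyosins varied mostly inside the depleted group. Actc1 was at 4660.3, 4366 and 5096 CPM in control, 5194, 5012 and 5477 in Cx43-/- and 5454, 2343 and 2679 in depleted libraries. Library 7 lay above all controls and libraries 8 and 9 far below them on the deposited scale. The log2 difference of -0.53 ± 0.32 was not called (adjusted p = 0.193), although without library 7 it was -0.91 and was called (adjusted p = 0.00418). On a common total libraries 7, 8 and 9 were at 5353, 2681 and 4086, against 4131 to 4854 in control libraries. Actc1 was not called there without library 7. Acta1, skeletal actin, was at 197, 374 and 257, 169, 224 and 291 and 242, 187 and 90.95 CPM in the same order. Its difference of -0.73 ± 0.29 missed the threshold (adjusted p = 0.0545), but it was called without library 7, at -1.03 (adjusted p = 0.0123), and without control library 1 (adjusted p = 0.0388). Acta1 came to 4.23, 8.57 and 5.04% of Actc1 in control, 3.25, 4.46 and 5.32% in Cx43-/- and 4.44, 7.98 and 3.40% in depleted libraries, with all groups overlapping. The coding sequences of these actins are nearly identical, so reads could be divided between them and each level is uncertain. Tpm1, the main cardiac tropomyosin, was at 4710.2, 5400.0 and 5374, 5179.6, 4765 and 4951 and 4850.3, 3428 and 3022 CPM, a difference of -0.48 ± 0.30 (adjusted p = 0.202) that was -0.68 (adjusted p = 0.0217) without library 7. Tpm2, a tropomyosin of slow and smooth muscle, was at 89.1, 49.6 and 63.2, 71.7, 55.3 and 77.3 and 123, 66.5 and 49.1 CPM, highest in library 7. Its log2 ratio to Tpm1 was 0.65 higher in depleted than in control nodes, with overlapping libraries (exact permutation p = 0.2, adjusted 0.6).

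Mybpc3 was called lower in depleted nodes and titin was not, a contrast that was not itself tested. Mybpc3, cardiac myosin-binding protein C, which regulates cross-bridge cycling and is bound to the thick filament, was at 1726, 1706 and 1654 CPM in control libraries and 1605, 1715 and 1684 in Cx43-/- libraries. In the depleted libraries it was at 809, 550.1 and 531 CPM. All 3 depleted values were below the lowest of the other 6, and the spread within each of the other groups was small. The log2 difference from control was -1.45 ± 0.24, 2.74-fold lower, with an adjusted p of 0.000117. It was called in all 21 alternative fits and stood at -1.12 after rescaling to a common total and -0.96 after median-of-ratios scaling. Ttn, the elastic filament that the thick filament lies along, was at 1650.4, 1632 and 1479 CPM in control, 1584, 1777 and 1816 in Cx43-/- and 1364, 1293 and 1756 in depleted libraries. The groups overlapped, library 9 held its highest depleted value, and the difference from control was -0.12 ± 0.25 (adjusted p = 0.716). Ttn was the only member with its highest depleted value in library 9 on the deposited scale. On a common total it was at 1339, 1480 and 2679 in libraries 7, 8 and 9, against 1409 to 1646 in control libraries.

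The M-band genes lay between these. Myom1, myomesin, was at 622, 647 and 608 CPM in control, 635, 708 and 680.4 in Cx43-/- and 563, 398 and 338 in depleted libraries, without overlap between depleted and control but not called (log2 difference -0.56 ± 0.23, adjusted p = 0.0537). It was called without library 7, at -0.77 (adjusted p = 0.00241), with library quality weights (adjusted p = 0.0126) and under robust empirical Bayes (adjusted p = 0.0397). Myom2, the fast-type M-protein, was at 573, 399 and 504, 522, 611 and 588 and 429, 247 and 206 CPM in the same order, with library 7 above the lowest control library. Its difference of -0.80 ± 0.25 was called (adjusted p = 0.016). The call was lost when control library 1 or 3 or depleted library 8 or 9 was left out, with adjusted p of 0.0906, 0.0606, 0.0668 and 0.056, and the median-of-ratios value of -0.31 was not called (adjusted p = 0.138). As a share of Myom1 within the library, Myom2 was 92.1, 61.7 and 82.9% in control, 82.3, 86.2 and 86.3% in Cx43-/- and 76.1, 62.02 and 60.9% in depleted nodes. Control library 2, which had the lowest share of its group, also held the lowest sum of atrial markers of the control group, 4244.8 CPM against 6377.4 and 7471.4, and the highest sum of ventricular markers, 6305.1 against 3843.2 and 5121.8.

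Among the 11 Z-disc core genes, Ldb3 and Nebl were lower and Pdlim5 was higher, and 8 were not called. Of all genes, 33.0% were lower and 3.23% higher. Nebl, nebulette, the cardiac nebulin relative that links actin to the Z-disc, was at 179.8, 147 and 156 CPM in control, 155, 186 and 157 in Cx43-/- and 92.1, 70.2 and 62.95 in depleted libraries. The depleted libraries were low together, at 75.1 ± 15.2 CPM (SD, n = 3), and did not overlap with the others. The log2 difference was -1.11 ± 0.20, 2.16-fold lower (adjusted p = 0.00031), and it was called in all 21 alternative fits. Ldb3, also called Cypher or ZASP, a PDZ and LIM protein that binds alpha-actinin, was at 731, 632 and 643, 653, 691 and 639.8 and 526, 288 and 268 CPM. No depleted library reached a control one, and the difference was -0.96 ± 0.24 (adjusted p = 0.00445), called in 20 of 21 alternative fits. Pdlim5, another PDZ and LIM protein of the Z-disc, went the other way, at 243, 265 and 259 CPM in control, 257, 258 and 281 in Cx43-/- and 598, 344 and 294 in depleted libraries. All 3 depleted libraries were above all others, with library 7 far above libraries 8 and 9. The difference of 0.62 ± 0.23 passed narrowly (adjusted p = 0.0417) and was 0.32 without library 7 (adjusted p = 0.124). The call was also lost in a fit of the 2 groups alone (adjusted p = 0.0994) and without any 1 of the control or Cx43-/- libraries, with adjusted p from 0.0621 to 0.131, whereas after rescaling to a common total the difference without library 7 was 0.79 (adjusted p = 0.000678).

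Actn2, sarcomeric alpha-actinin, the protein that cross-links thin filaments at the Z-disc, was at 1054, 1004 and 1064 CPM in control, 1116, 1091 and 1064 in Cx43-/- and 1297, 763 and 650.5 in depleted libraries. Library 7 was above every control library and libraries 8 and 9 below, and the difference of -0.27 ± 0.25 was not called (adjusted p = 0.413). Without library 7 it was -0.56 (adjusted p = 0.0186). On a common total library 9, at 992, lay within the control range of 934 to 1014, and without library 7 Actn2 was not called. Csrp3, muscle LIM protein, and Tcap, telethonin, which caps titin in the Z-disc, were at 1314 ± 686 and 953 ± 439 CPM in depleted nodes against 853 ± 23.05 and 844 ± 103 in control nodes (SD, n = 3). Both carried a wide spread over the depleted libraries and were called higher without library 9, at 0.81 (adjusted p = 0.0163) for Csrp3 and 0.52 (adjusted p = 0.0329) for Tcap. The remaining Z-disc members, Nexn, Myoz2, Myot, Mypn and Synpo2l, had log2 differences between -0.27 for Myot, myotilin, and 0.25 for Synpo2l. Myoz2, calsarcin-1, a tether of calcineurin at the Z-disc, was at 449 ± 40.9 CPM in control and 445 ± 114 in depleted nodes.

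The genes that anchor the Z-disc held the highest differences of the list. Of these 6, 2 were called higher and 1 lower, beside 3.23% and 33.0% of all genes. Xirp1, an actin-binding Xin repeat protein of the intercalated disc, was at 134, 84.7 and 106 CPM in control, 116, 124 and 113 in Cx43-/- and 381, 253 and 120.2 in depleted libraries. Libraries 7 and 8 were above all others, while library 9 lay within the control range. The log2 difference was 1.09 ± 0.28, 2.12-fold higher (adjusted p = 0.00544), and 0.71 without library 7 (adjusted p = 0.0334). Flnc, filamin C, which cross-links actin and is recruited to sites of sarcomere damage, was at 228, 196 and 183 CPM in control, 186, 206 and 209.6 in Cx43-/- and 850.3, 298 and 217 in depleted libraries. Its highest value was 3.91 times its lowest within the depleted group, the widest range of any member there. The difference of 0.92 ± 0.31 was called (adjusted p = 0.0261) and was not called without library 7 (0.34, adjusted p = 0.14), without control library 2 (adjusted p = 0.0616) and without control library 3 (adjusted p = 0.0826). It was also not called under robust empirical Bayes (adjusted p = 0.0551) or with no filter on low values (adjusted p = 0.19). After rescaling to a common total it was 1.25 (adjusted p = 0.00204), and 0.81 with library 7 also left out (adjusted p = 0.000326). The smooth muscle markers, a further possible source of Flnc, Des and Tpm2, summed to 354 to 479 CPM in control, 345 to 442 in Cx43-/- and 334 to 483 in depleted libraries, with library 7 at the top. Of the 8, 2 were called higher and 2 lower. Their part in the result was not tested.

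Des, desmin, the intermediate filament around the Z-disc, was at 956, 1163 and 1076 CPM in control, 1072, 969 and 1079 in Cx43-/- and 1948, 1348 and 1017 in depleted libraries. Its depleted libraries overlapped the control range only through library 9, and the difference of 0.39 ± 0.26 was not called (adjusted p = 0.236), although without library 9 it was 0.61 (adjusted p = 0.0201). After rescaling to a common total its depleted libraries, at 1912, 1543 and 1551, all lay above the control ones, at 848, 1173 and 1025, and the difference of 0.72 was called (adjusted p = 0.00246). Xirp2, the second Xin repeat gene, was at 230.2, 313 and 280.1, 214, 279.7 and 295 and 475, 295 and 217 CPM in the 3 groups and was not called (log2 difference 0.20 ± 0.25). Xirp1 was 58.2, 27.1 and 37.8% of Xirp2 in control, 54.3, 44.4 and 38.2% in Cx43-/- and 80.1, 85.5 and 55.5% in depleted libraries. The depleted and control shares overlapped (exact permutation p = 0.2, adjusted 0.6). Cmya5, myospryn, which binds desmin and alpha-actinin, was lower, at 175 ± 38.3 CPM in depleted against 289 ± 59.2 in control nodes (SD, n = 3), a log2 difference of -0.73 ± 0.22 (adjusted p = 0.0129). Without control library 1 it was not called (adjusted p = 0.0963). Smpx, the small muscle protein of the costamere, was at 168 ± 30.2 and 154 ± 65.5 CPM in control and depleted nodes, a difference of -0.19 ± 0.25 (adjusted p = 0.556) that was -0.51 (adjusted p = 0.0472) without library 7.

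**Figure D3:**
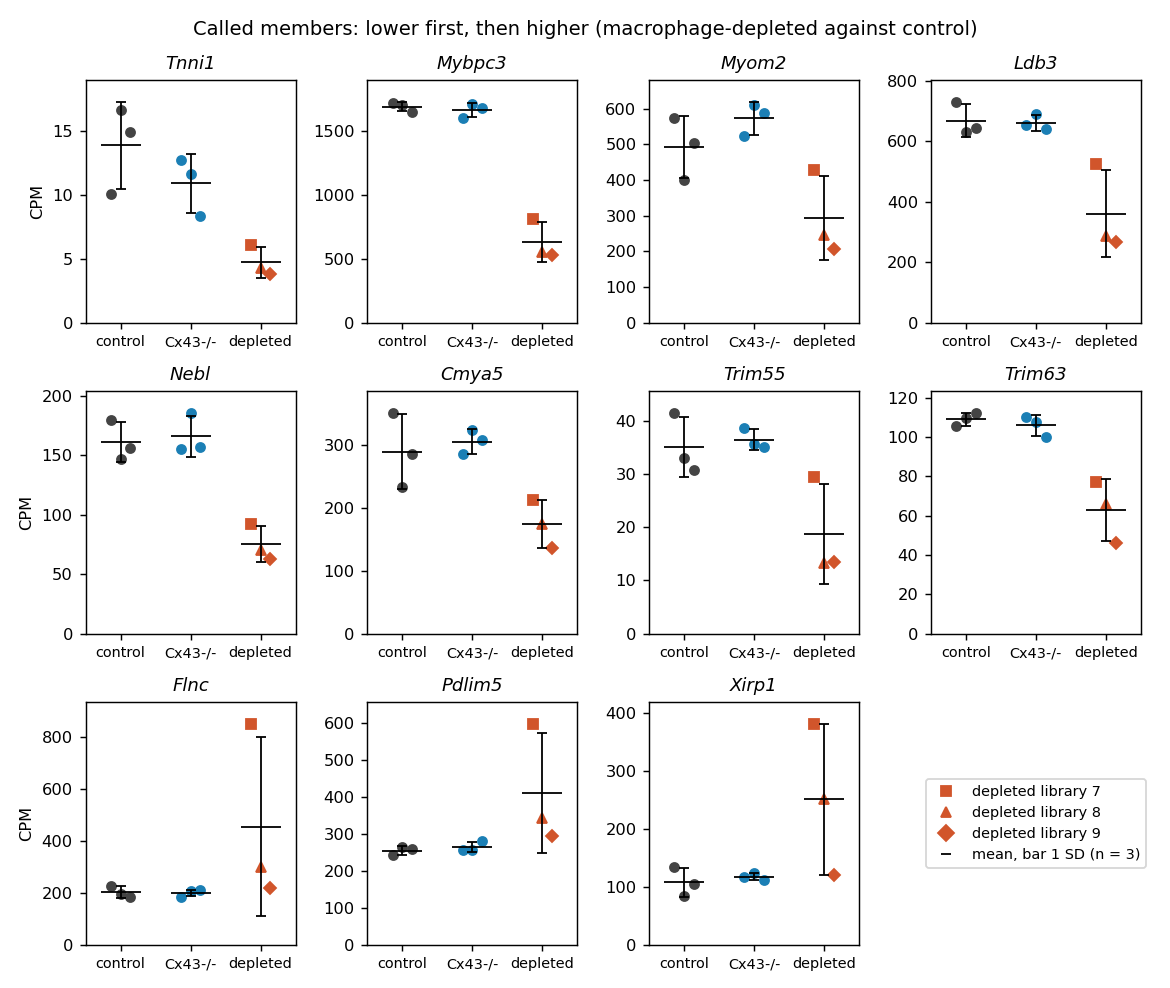
CPM of the 11 genes called between depleted and control nodes in each of the 9 libraries, with group means and SD (n = 3). The 3 depleted points of Mybpc3, Nebl, Ldb3 and Tnni1 sit below all control points, whereas for Flnc, Pdlim5 and Xirp1 the depleted points are spread out with library 7 at the top.

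Of the 3 MuRF ubiquitin ligases, which sit on titin and the M-band and mark muscle proteins for degradation, Trim55 and Trim63 were lower and Trim54 was not called. A lower call was made for 33.0% of all genes. Trim55, MuRF2, was at 41.4, 33.1 and 30.7 CPM in control, 38.7, 35.5 and 35.03 in Cx43-/- and 29.5, 13.3 and 13.4 in depleted libraries. Trim63, MuRF1, was at 106, 109.5 and 112, 110.5, 107 and 100 and 77.1, 66.1 and 46.04 CPM in the same order. For both, every depleted library was below every control library, with log2 differences of -0.98 ± 0.26 (adjusted p = 0.0056) and -0.82 ± 0.21 (adjusted p = 0.00438). Trim54, MuRF3, was at 57.8, 64.4 and 58.8, 56.1, 56.1 and 62.7 and 91.6, 60.97 and 43.5 CPM, a log2 difference of 0.05 ± 0.23. Under median-of-ratios scaling neither lower call held, with adjusted p of 0.0654 for Trim55 and 0.0527 for Trim63. The skeletal fibre markers summed to 45.0 to 75.7 CPM in control and 33.6 to 60.4 in depleted libraries, most of it Mybpc2, and the fast troponin C gene Tnnc2 was at 0 in all 9 libraries.

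The balance of higher and lower calls depended on how libraries were scaled. With a common total, 9 members were called higher (background 8.79% of all genes) and 8 lower (19.6%), and the median over the 34 was 0.11. The lower genes were the same 8, and the added higher genes were Tnnc1, Csrp3, Des, Synpo2l, Xirp2 and Trim54. With median-of-ratios scaling 14 were called higher (13.1%) and 4 lower (13.0%), the lower ones being Mybpc3, Tnni1, Ldb3 and Nebl. Quantile normalization gave 4 higher (1579 of all 12925 genes) and 8 lower (1811 of all genes), with 26.2% of all genes called either way. Leaving out library 7 on the deposited scale gave 1 higher (2.89% of all genes) and 16 lower (45.6%), and leaving out library 9 gave 6 higher (5.38%) and 7 lower (25.9%). Without library 7 and with a common total, 6 were higher (Xirp1, Flnc, Pdlim5, Csrp3, Des and Tnnc1; 8.68% of all genes) and 8 lower (19.7%). Those 8 lower genes were the ones called lower on the deposited scale with all libraries. Leaving out control library 2 (2.61%) or control library 3 (2.41%) gave 1 higher in each case.

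Genes around the sarcomere list were read from lists of the same pathway. Of 35 tested genes among 40 other sarcomere and Z-disc genes, 13 were lower and 4 higher in depleted nodes (median -0.21). Of all genes, 33.0% were lower and 3.23% higher. Fhl1, a LIM protein bound to titin, was at 155, 121 and 141 CPM in control and 937, 374 and 398 in depleted libraries (log2 difference 1.91 ± 0.26, adjusted p = 1.31e-05). Tmod1, which caps the pointed end of the thin filament, and Lmod3, a leiomodin, had differences of -1.72 and -1.62. Mybphl, a myosin-binding protein H relative, had one of -1.87. Fhl1 was thus on the higher side, and the 3 others were called lower. Of 14 tested genes for sarcomere assembly and turnover, 8 were lower and none higher (median -0.73). They included Asb2, a ubiquitin ligase subunit that targets filamins (-1.61, adjusted p = 3.08e-06), Smyd1, a methyltransferase needed for sarcomere assembly (-1.42), Mylk3, cardiac myosin light chain kinase (-1.19), and Fhod3, a formin that assembles actin (-1.18).

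Of 16 transcriptional regulators of sarcomere genes, 8 were lower and none higher (median -0.56). Those with the smallest p were Gata4 (-1.14), Mef2c (-1.18), Mef2d (-1.09) and Mef2a, at 123 ± 10.8 CPM in control and 61.4 ± 7.35 in depleted nodes, all called on each of the 4 scales. Mef2c, which with its relatives binds the MEF2 site, was at 33.2, 35.7 and 29.7 CPM in control, 29.1, 37.7 and 32.6 in Cx43-/- and 16.7, 16.5 and 10.4 in depleted libraries. Of 17 costamere genes, which tie the Z-disc to the membrane, 8 were lower and none higher (median -0.54), with Sspn, sarcospan, at -1.29 and Dag1, dystroglycan, at -1.25. Of the 7 cardiac myosins 5 were lower (median -0.85). Myh6, the alpha heavy chain to which Mybpc3 binds, was at 10444, 7338 and 7748 CPM in control and 4592, 3017 and 2698 in depleted libraries, a log2 difference of -1.33 ± 0.32 (adjusted p = 0.00326). Beside these counts, the median over all genes was -0.49 and 33.0% were called lower. With median-of-ratios scaling 13.0% of all genes were called lower and 13.1% higher. The counts of lower and higher calls were then 6 and 9 of 35 other sarcomere genes and 6 and 1 of 14 for assembly and turnover. They were 5 and 0 of 16 regulators, 5 and 0 of 17 costamere genes and 2 and 0 of 7 myosins.

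The second comparison asked whether the deletion labelled Cx3cr1 Cx43-/- changed the sarcomere genes. No member was called, against 1 of 12925 genes (0.00774%). No member had an unadjusted limma p under 0.05, while 191 genes did. The log2 differences ran from -0.33 ± 0.28 for Tnni1 to 0.27 ± 0.30 for Tcap, with a median of 0.04 over the 34 and 0.07 over all genes. Among the smallest were those of Flnc, at 202 ± 23.5 CPM in control and 200.4 ± 12.6 in Cx43-/- nodes (SD, n = 3), and Ldb3, at 668 ± 54.2 and 661 ± 26.8. Libraries of both groups did not overlap for 2 members, as for 8.94% of all genes in either direction: Actn2, at 1090.5 ± 25.6 against 1041 ± 32.1 CPM in control, and Tnnt2, at 4461 ± 319.9 against 5132 ± 32.3 CPM. Neither was called. No gene of the other sarcomere, assembly, regulator, costamere or myosin lists was called in this comparison.

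The third comparison set the depleted nodes against the Cx43-/- nodes. It uses the same depleted libraries as the first, so its values are given beside those above and are no second test of them. Of the 34 genes 9 were lower (40.7% of all genes) and 2 higher (2.69%), and the median was -0.31 against -0.58 over all genes. Mybpc3 was -1.43 ± 0.24 (adjusted p = 0.000122), Nebl -1.15 ± 0.20 (adjusted p = 0.000192) and Tnni1 -1.13 ± 0.28 (adjusted p = 0.00319). Trim55 was -1.04, Ldb3 -0.94, Cmya5 -0.83 and Trim63 -0.77. The M-band genes were both called here, Myom2 at -1.03 ± 0.25 (adjusted p = 0.00259) and Myom1 at -0.67 ± 0.23 (adjusted p = 0.0209). Myom2 was called in all 21 alternative fits of this comparison and Myom1 in 12. Xirp1 was higher by 0.94 ± 0.28 (adjusted p = 0.0116) and Flnc by 0.93 ± 0.31 (adjusted p = 0.0213). Pdlim5 was at 0.57 and not called (adjusted p = 0.0531). Without library 7 no member was called higher by limma (2.24% of all genes) and 14 were lower (52.3% of all genes). In that fit 18 of the 34 members and 7821 of all 12925 genes had an unadjusted limma p under 0.05. Flnc was then at 0.35 (adjusted p = 0.12) and Xirp1 at 0.56 (adjusted p = 0.0752). Flnc was also not called without Cx43-/- library 4 (adjusted p = 0.0633), nor Xirp1 without depleted library 8 (adjusted p = 0.0508), which left 1 higher in each case (2.21% and 2.04% of all genes), and without library 9 there were 5 higher (5.04%). Myom1 was not called without Cx43-/- library 4, 5 or 6 (adjusted p = 0.0501, 0.0924 and 0.0775) or depleted library 8 (adjusted p = 0.0625). On a common total 10 were higher (8.47%) and 8 lower (20.9%), and with median-of-ratios scaling 13 were higher (13.1%) and 3, Mybpc3, Myom2 and Nebl, lower (12.9%). Quantile normalization gave 6 higher (1566 of all 12925 genes) and 9 lower (1790 of all genes), with 26.0% of all genes called either way. On the deposited scale libraries did not overlap for 2 members on the higher side, Flnc and Pdlim5, and 9 on the lower side, where 3.39% and 50.6% of all genes showed this.

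**Figure D4:**
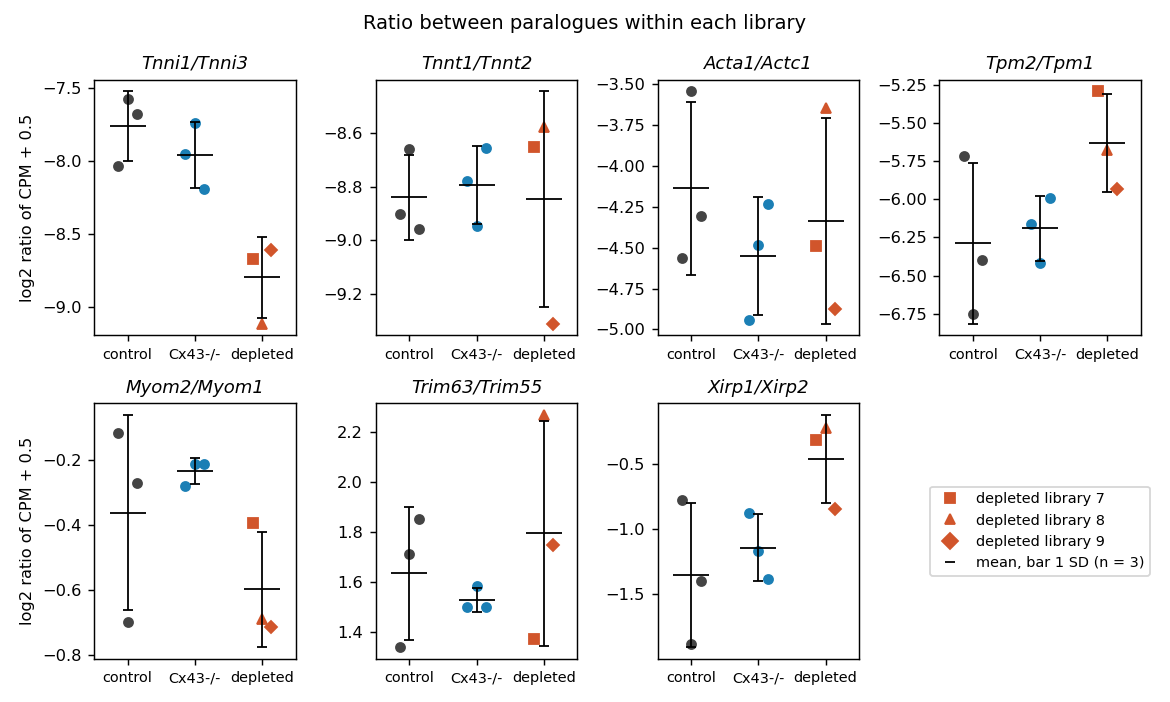
Within-library log2 ratios of 7 pairs of related genes in the 9 libraries, with group means and SD (n = 3). The depleted points of Tnni1 to Tnni3 lie below all others, those of Tnnt1 to Tnnt2 overlap the control points, and no pair could pass a threshold of 0.05 with 3 libraries a group.

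Ratios within a library gave the same comparisons free of scaling. Against the Cx43-/- nodes the log2 ratio in depleted nodes differed without overlap for Tnni1 to Tnni3 (-0.84), Myom2 to Myom1 (-0.36), Tpm2 to Tpm1 (0.56) and Xirp1 to Xirp2 (0.68), each with an exact permutation p of 0.1 and 0.42 after adjustment. Trim63 to Trim55 differed by 0.16 between depleted and control nodes and by 0.27 between depleted and Cx43-/- nodes, with overlapping libraries. None of the 21 ratio tests passed after adjustment, and with 3 libraries a group none could.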

How the data were processed

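The sources were 9 RNA-seq libraries of AV nodes and 1 table of gene symbols. Its values are CPM to 2 decimals, deposited by the authors. Per the submitters' processing notes, the build was mm9 and the tools included HTSeq 0.6.0, edgeR and STAR 2.3.0, whose roles are not described. The labels' protocols give a directional library kit. Use of strand in counting is not stated there. Tests used limma 3.58.1 (R 4.3.3) on log2(CPM + 0.5): 1 model over the 9 libraries, trended empirical Bayes, genes at 1 CPM or more in at least 3 libraries, two-sided, Benjamini-Hochberg over 12925 genes, called at an adjusted p under 0.05. The script was tested on simulated data with equal spread in all genes and groups and no scale difference between libraries. That simulation cannot speak for the wider spread and lower listed totals of the depleted libraries. The limma standard errors and p-values rest on 1 spread per gene, pooled over the 3 groups and moderated by a trend with level. Among members the median ratio of highest to lowest library was 1.98 in depleted nodes, against 1.22 in control and 1.14 in Cx43-/- nodes. The pooled spread can therefore be too small for the depleted group. Ratios within libraries used exact permutation tests. Alternatives covered the pseudocount, filter, scaling, model and leaving out each library. The 34 genes and all lists were chosen with earlier results of these data known. Values in every library were given for members called with a fold of 2 or more in any comparison, for 7 pairs of related genes and for Ttn, Actn2 and Des. Flnc, Pdlim5, Ldb3 and Trim54 were added after their values were seen. Of other lists, up to 4 genes with the smallest p were named. Exon lengths came from GENCODE M21, promoters from RefSeq on GRCm38.p6.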

Additional observations from a re-analysis of the deposited data

How the results depend on the processing

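Of 21 alternatives 2, leaving out depleted library 7 or 9 after rescaling to a common total, were chosen after seeing the data. For depleted against control nodes, the count of members called higher (3) became 0 with no filter on low values, 9 with a common total and 14 with median-of-ratios scaling, ranged from 1 to 6 with 1 library left out, and was 6 without library 7 and 11 without library 9 on a common total. Over all genes the higher count was 417 of 12925, and became 315 of 22144 with no filter. It was 1136 with a common total and 1687 with median-of-ratios scaling. With 1 library left out it ranged from 312 to 696. On a common total it was 1122 without library 7 and 1170 without library 9. The count of members called lower (8) became 5 with no filter and 4 with median-of-ratios scaling, and ranged from 7 to 16 with 1 library left out (8 and 7 on a common total). Over all genes the lower count was 4261 of 12925, 2972 of 22144 with no filter and 1675 with median-of-ratios scaling. It ranged from 2316 to 5900 with 1 library left out (2550 and 2743 on a common total). For depleted against Cx43-/- nodes, the higher count of members (2) became 0 with no filter, 10 with a common total, 13 with median-of-ratios scaling, 6 with quantile normalization and 5 with library quality weights, ranged from 0 to 5 with 1 library left out, and was 7 and 12 without library 7 and 9 on a common total. Over all genes the higher count was 348, and became 276 with no filter, 1095 with a common total and 1693 with median-of-ratios scaling. It was 1566 with quantile normalization and 860 with library quality weights. With 1 library left out it ranged from 242 to 651. On a common total it was 1045 without library 7 and 1178 without library 9. The lower count of members (9) became 3 with median-of-ratios scaling and ranged from 8 to 14 with 1 library left out (10 and 8 on a common total). Over all genes the lower count was 5256 and became 1672 with median-of-ratios scaling. It ranged from 3060 to 6759 with 1 library left out (2712 and 3012 on a common total). With no filter the calls against control of Xirp1, Flnc, Pdlim5, Ldb3, Myom2 and Cmya5 were lost. With no filter 22144 genes were tested by limma. Against control 11 members and 6559 of all genes had an unadjusted p under 0.05. Against Cx43-/- nodes 10 members and 7390 of all genes did. The cause of the changed counts was not tested for this or any other setting. Estimates changed sign and passed the threshold with median-of-ratios scaling for Nexn (0.32), Lmod2 (0.34) and Myoz2 (0.45) against control and for Nexn (0.41) and Lmod2 (0.38) against Cx43-/-, and for Mypn (0.42) against Cx43-/- without library 9 on a common total. Mybpc3, Tnni1 and Nebl were called lower than control in all 21 alternatives. For Cx43-/- against control, 0 members were called in every alternative. No paired analysis was possible because the replicate numbers run from 1 to 9 and no number is shared between groups. A level of 1 CPM, where genes entered the tests, corresponded to at least 52.1 reads.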

Other observations

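Mybpc2, the fast skeletal myosin-binding protein C, was detected in every node, at 31.3, 59.6 and 35.7 CPM in control, 34.6, 40.5 and 47.9 in Cx43-/- and 49.5, 30.7 and 28.1 in depleted libraries. Of the other genes of fast skeletal fibres, Pvalb, parvalbumin, was at 9.05, 12.9 and 12.4 CPM in control, 10.3, 7.92 and 6.82 in Cx43-/- and 3.68, 6.62 and 0.820 in depleted libraries. Atp2a1, the fast calcium pump, was at 2.78, 0.650 and 2.18, 2.91, 1.85 and 2.54 and 1.55, 2.21 and 2.42 CPM in the same order. Tnni2 reached at most 3.42 CPM, Tnnt3 at most 1.55, and Tnnc2 was at 0 in all 9 libraries. The groups of Mybpc2 overlapped, while those of its cardiac relative Mybpc3 did not between depleted and control nodes. Myh7b, a slow myosin heavy chain of the comparison list, was at 42.3, 37.8 and 41.3 CPM in control, 34.8, 40.6 and 35.9 in Cx43-/- and 3.23, 1.94 and 2.02 in depleted libraries, a log2 difference of -3.85 ± 0.23 between depleted and control nodes (limma adjusted p = 4.34e-11). It had the smallest p of the cardiac myosins.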
